A study of Mus musculus with 6 samples.

Results

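The disease-associated microglia genes are a set of 10 genes, Trem2, Tyrobp, Apoe, Clec7a, Axl, Lpl, Cst7, Itgax, Cd52 and Spp1, taken by symbol from the 23366 genes of the table. They were taken by name as genes of the TREM2 and APOE state, with earlier results of these mice known, and all 10 were found. RNA was sequenced from the frontal cortex of 3 control mice (A1, A2 and A3) and 3 microglia-depleted mice (A4, A5 and A6), one library per mouse, at day 10 after depletion. All mice were on a C57BL/6 background, and their ages are not given in the sources used here. The depleted mice were CX3CR1-CreERT2+/- iDTR+/-, that is, they carried a tamoxifen-inducible Cre recombinase under the CX3CR1 promoter and a diphtheria toxin receptor that this Cre switches on. The control mice were littermates with CX3CR1-CreERT2+/- and without iDTR. Tamoxifen was followed by a wait in which peripheral monocytes turned over while the long-lived microglia kept the receptor, and diphtheria toxin was then injected. The methods do not state clearly whether the control mice also received the toxin, so the genotype and the toxin itself cannot be told apart. The study describes the microglia at this day as repopulated.

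Disease-associated microglia are a state of microglia first described around amyloid plaques, in which genes of phagocytosis and lipid handling are high and genes of resting microglia are low. The receptor TREM2 binds lipids and lipoproteins, among them APOE, and signals through its adaptor TYROBP (DAP12), and the later steps of the state depend on TREM2. In healthy cortex several of these genes are made mainly by other cells, such as Apoe by astrocytes and Spp1 by some neurons, so a level in whole tissue is a sum over cell types.

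The values are FPKM, fragments scaled for transcript length and library size. The low values of each library are multiples of what a single fragment is worth. Their spacing put the depth at 14.6, 20.5 and 18.3 M fragments in A1, A2 and A3. In the depleted mice A4, A5 and A6 it put the depth at 13.6, 3.57 and 11.2 M. The study states the same read coverage for every sample, whereas the deepest estimate was 5.74 times the shallowest. The estimates were not checked against raw reads. Every depleted library was shallower than every control library, and a single fragment on a transcript of 1 kb was worth 0.28 FPKM in A5 and 0.0488 to 0.0891 FPKM in the other mice. Xist was 4.74 FPKM in A3 and 30.9 to 46.7 FPKM in the others, and 4 Y-linked genes summed to 5.56 FPKM in A4 and to at most 0.16 in the others, although the mice were described as sex-matched. The type I interferon list, 10 genes such as Irf7 and Isg15, summed to 23.8 to 36.5 FPKM in control mice and to 427.9, 77.0 and 74.9 FPKM in depleted A4, A5 and A6. Neuronal, astrocytic and oligodendrocyte markers were abundant in all 6 mice, as in cortex, and the summed markers of resting microglia were 120.4 to 145.6 FPKM in control and 125.4 to 151.1 FPKM in depleted mice. The choroid plexus gene Ttr was 160.1 to 313.7 FPKM in control and 40.9 to 64.3 FPKM in depleted mice. The part of depth, of the interferon response and of the dissection in the results that follow was not tested.

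Promoter windows were matched in RefSeq (GRCm38.p6) for 7 of the 10 genes, without Tyrobp, Lpl and Cd52. The windows shown are the 250 bases before the start of Clec7a and Itgax, the genes with the highest ratio of depleted to control level, and of Spp1, which held 2 of the 3 motifs searched. Capitals mark a motif match, and each sequence runs 5′ to 3′ on the strand of its gene, at chr6:129472780-129473029 (minus strand) for Clec7a, chr7:128129300-128129549 (plus strand) for Itgax and chr5:104434861-104435110 (plus strand) for Spp1.
Clec7a: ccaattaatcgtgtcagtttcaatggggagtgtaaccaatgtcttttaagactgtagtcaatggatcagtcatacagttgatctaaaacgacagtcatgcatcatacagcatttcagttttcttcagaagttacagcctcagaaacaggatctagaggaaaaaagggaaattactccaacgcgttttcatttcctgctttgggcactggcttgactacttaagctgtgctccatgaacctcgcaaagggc
Itgax: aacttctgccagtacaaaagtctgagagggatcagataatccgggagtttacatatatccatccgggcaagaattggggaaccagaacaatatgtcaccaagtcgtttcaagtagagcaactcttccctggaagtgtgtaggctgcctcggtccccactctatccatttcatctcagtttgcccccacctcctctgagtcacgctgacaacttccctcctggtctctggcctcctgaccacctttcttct
Spp1: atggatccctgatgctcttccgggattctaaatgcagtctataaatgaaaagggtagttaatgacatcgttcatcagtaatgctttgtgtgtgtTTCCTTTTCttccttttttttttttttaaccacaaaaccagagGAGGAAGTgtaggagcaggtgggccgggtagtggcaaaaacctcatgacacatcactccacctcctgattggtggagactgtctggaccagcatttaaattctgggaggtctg
The motifs, searched on both strands, were GAGGAAGT, a form of the site of the myeloid factor PU.1, GAAANNGAA, which resembles the interferon-stimulated response element, and CACGTG, an E-box. GAGGAAGT was found in 1 of the 7 windows, Spp1, and in 2.44% of all 32817 promoters of this length. GAAANNGAA was found in 2 of the 7, Apoe and Spp1, and in 7.12% of all promoters, and CACGTG in 0 of the 7 and in 6.02% of all promoters. Spp1 and Apoe, the genes with a match, did not pass the test between groups, and neither did Clec7a, while Itgax was not tested. A match is only a run of letters.

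The order of the 10 genes by level was alike in both groups at the top. Apoe was the highest, with a control mean of 1116 ± 135 FPKM (SD, n = 3), and Tyrobp followed with 25.5 ± 4.05 FPKM (SD, n = 3). In control mice Spp1, Trem2 and Axl came next, and neighbours among these 3 overlapped in range, before Lpl, Cd52, Cst7, Clec7a and Itgax, each apart from its neighbour. Cst7 was apart from Clec7a by 0.14 against 0.12 FPKM, and Clec7a from Itgax by 0.09 against 0.08 FPKM. These values rested on about 2 to 6 fragments each, so both gaps lie within counting error. In depleted mice Cd52 stood among Trem2, Spp1 and Axl, in a run where each overlapped its neighbour, and Lpl came after them. Cst7, Clec7a and Itgax remained the lowest 3 in depleted mice and each overlapped its neighbour there.

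**Figure D1:**
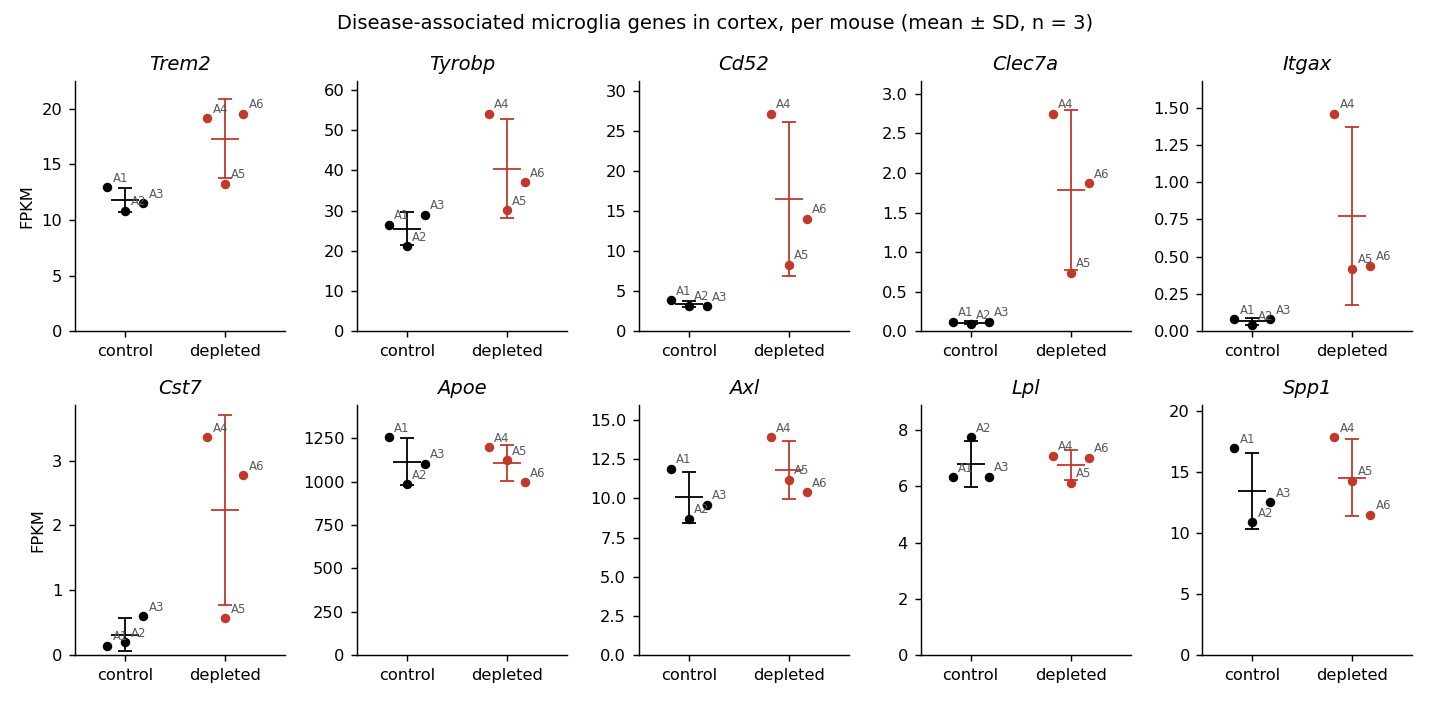
FPKM of each of the 10 genes in each mouse (points, named), with the mean and SD of 3 control (black) and 3 depleted (red) mice, on a linear axis that starts at 0 in each panel. In Trem2, Tyrobp, Cd52, Clec7a and Itgax all depleted mice lie above all control mice, and A4 is the highest of the 6 mice in 7 of the 10 genes.

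Of the 9 genes tested with limma across the whole table, 0 passed an adjusted p of 0.1, where 4 of 14385 genes, 0.0278%, passed in either direction. At the same threshold the study called more genes, with DESeq on raw counts, which were not used here. At an unadjusted p under 0.05 in limma, 5 of the 9 were higher in depleted mice (Trem2, Tyrobp, Clec7a, Cst7 and Cd52), against 4.79% of all genes tested. Clec7a and Cst7 had control means of 0.11 and 0.313 FPKM, under the filter of 0.5 FPKM. They entered the test only through the depleted mice, so their direction was fixed by the filter. In 5 of the 10 genes (Trem2, Tyrobp, Clec7a, Itgax and Cd52) the lowest depleted mouse exceeded the highest control mouse, against 8.21% of the genes tested. A mouse with more myeloid cells and one with more of the RNA per cell give the same value in whole cortex and cannot be told apart. In microglia sorted from depleted mice at the same day, the study reports lower Trem2 than in control mice. It also describes more microglia in gray matter after depletion. The part of cell number in the values of whole cortex was not tested. The other 4 tested genes, Apoe, Axl, Lpl and Spp1, overlapped between groups.

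Trem2, the lipid-sensing receptor of microglia on chromosome 17 (48346401 to 48354147, plus strand, GRCm38), was 12.95, 10.83 and 11.51 FPKM in the 3 control mice (here and for each gene in the order A1 to A3), and 19.1, 13.2 and 19.5 FPKM in depleted A4, A5 and A6. A4 and A6 were well above the control mice, and A5 was just above the highest of them. Its log2 fold change was 0.50 (SE 0.15, adjusted p = 0.378 in limma, 0.128 to 0.892 over the alternatives), from a mean of 11.8 ± 1.08 to 17.3 ± 3.52 FPKM (SD, n = 3 each).

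Tyrobp, its signalling adaptor on chromosome 7 (30413760 to 30417585, plus strand), was 26.5, 21.1 and 29.0 FPKM in control mice, and 54.1, 30.1 and 37.1 FPKM in depleted A4, A5 and A6. A4 was the highest, and A5 exceeded control mouse A3 by little. Tyrobp had a log2 fold change of 0.61 (SE 0.20, adjusted p = 0.394 in limma, 0.195 to 0.892 over the alternatives), and 0.39 without A4. The ratio of Trem2 to Tyrobp was 0.467 ± 0.0614 in control and 0.440 ± 0.0868 in depleted mice (SD, n = 3 each, exact two-sided permutation p = 0.7). Against Csf1r, the growth factor receptor on which microglia depend, both stood higher in every depleted mouse. The share of all genes that did so on a ratio to Csf1r was not computed. In microglia sorted from depleted mice the study reports lower Csf1r too, and its part in these ratios was not tested. The ratio of Trem2 to Csf1r was 0.617 ± 0.0259 in control and 0.952 ± 0.0867 in depleted mice (SD, n = 3 each, exact two-sided permutation p = 0.1, the smallest that 3 mice against 3 allow).

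Partners of this receptor in the cell did not pass the test either. Of 10 genes of TREM2 and TYROBP signalling, 9 had a positive log2 fold change, with a median of 0.20 against -0.0085 over all genes tested, and 2 had an unadjusted p under 0.05 in limma, both higher. Over all genes tested 48% had a positive log2 fold change, and 4.79% were higher at that unadjusted p. Hcst, which encodes the related adaptor DAP10, was 0.33 to 0.49 FPKM in control and 0.98, 2.53 and 1.40 FPKM in depleted A4, A5 and A6 (log2 fold change 0.85, adjusted p = 0.370 in limma). With a control mean of 0.427 FPKM, Hcst also entered the test only through the depleted mice. The kinase Syk had a log2 fold change of 0.047, the phospholipase Plcg2 0.24, the lipid phosphatase Inpp5d 0.0090 and the exchange factor Vav1 -0.074.

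Clec7a encodes dectin-1, a receptor for beta-glucan that is nearly absent from resting microglia, on chromosome 6 (129461591 to 129472779, minus strand). It was 0.12, 0.09 and 0.12 FPKM in control mice, and 2.75, 0.74 and 1.87 FPKM in depleted A4, A5 and A6. The groups did not overlap, and A4 was the highest mouse. The mean of the depleted mice was 16.2 times that of the control mice, and 11.9 times without A4. These values rested on about 4, 4 and 5 fragments in control mice, and on about 85, 6 and 48 in A4, A5 and A6. The log2 fold change, which is on the log2(FPKM + 1) scale and understates low genes, was 1.26 (SE 0.27, adjusted p = 0.310 in limma, 0.0478 to 0.892 over the alternatives). With a pseudocount of 0.1 it was 3.0. The lowest adjusted p came without A5, the shallowest library, with a log2 fold change of 1.56. The annotation used for positions types Clec7a as a polymorphic pseudogene.

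CLEC7A signals through the CARD9 complex. Fcer1g, the gamma chain of Fc receptors, is not a member of that complex but was kept in the same list. It was 12.1 to 13.1 FPKM in control and 25.1, 18.7 and 17.4 FPKM in depleted A4, A5 and A6 (log2 fold change 0.64, adjusted p = 0.307 in limma). Card9 itself had a log2 fold change of -0.11. The list of 4, Fcer1g included, had a median of 0.19, and 0 passed.

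Axl, a receptor tyrosine kinase that helps clear dying cells, lies on chromosome 7 (25757273 to 25788705, minus strand). It was 11.9, 8.71 and 9.61 FPKM in control mice, and 13.9, 11.2 and 10.4 FPKM in depleted A4, A5 and A6. The groups overlapped, since A1 was above A5 and A6. Axl had a log2 fold change of 0.21 with a 95% interval of -0.11 to 0.54 (adjusted p = 0.621 in limma, 0.435 to 0.907 over the alternatives). Of the other TAM receptors and ligands, Tyro3 was lower in every depleted mouse (51.0 to 58.0 against 60.0 to 62.1 FPKM, log2 fold change -0.15), and the log2 fold changes of Mertk and the ligand Gas6 were -0.26 and -0.16. Pros1, the other ligand, was 3.36 to 3.58 FPKM in control and 4.49 to 4.96 FPKM in depleted mice (log2 fold change 0.37, adjusted p = 0.378 in limma).

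Apoe, the lipoprotein that TREM2 binds, lies on chromosome 7 (19696109 to 19699188, minus strand). It was 1256, 987 and 1105 FPKM in control mice, and 1200, 1125 and 998 FPKM in depleted A4, A5 and A6. The groups lay within each other. Between groups Apoe had a log2 fold change of -0.0076 with a 95% interval of -0.25 to 0.23 (adjusted p = 0.986 in limma, 0.821 to 0.995 over the alternatives).

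Lpl, the lipase that frees fatty acids from lipoproteins, lies on chromosome 8 (68880491 to 68907448, plus strand). It was 6.33, 7.75 and 6.35 FPKM in control mice, and 7.09, 6.14 and 7.03 FPKM in depleted A4, A5 and A6. No order between the groups could be seen, and A2 was the highest mouse and A5 the lowest. Lpl had a log2 fold change of -0.0078 with a 95% interval of -0.28 to 0.26 (adjusted p = 0.987 in limma, 0.881 to 0.994 over the alternatives). Among the APOE and LPL lipid handling genes, 9 of 12 could be tested. Their median was -0.076 on the log2 scale, and 2 were positive, against -0.0085 and 48% over all genes tested. Abca1, the cholesterol exporter, was 3.27 to 3.78 FPKM in control and 6.13, 4.24 and 3.87 FPKM in depleted A4, A5 and A6 (log2 fold change 0.35). Apoc1 had a log2 fold change of 0.25 and Angptl4, an inhibitor of the lipase, of -0.40.

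Cst7, an inhibitor of lysosomal cysteine proteases, lies on chromosome 2 (150570415 to 150578944, plus strand). It was 0.14, 0.20 and 0.60 FPKM in control mice, and 3.36, 0.57 and 2.78 FPKM in depleted A4, A5 and A6. A4 and A6 stood above all control mice, and A5 lay just below A3. The A5 value rested on about 2 fragments (95% Poisson interval 0.242 to 7.22), and those of A4 and A6 on about 45 and 31. For Cst7 the log2 fold change was 1.19 (SE 0.36, adjusted p = 0.378 in limma, 0.0571 to 0.892 over the alternatives), 2.35 with a pseudocount of 0.1, and 1.64 without A5, where it passed. Its list of relatives and target proteases had 5 genes, 4 of them with a positive log2 fold change and 3 with an unadjusted p under 0.05 in limma, all higher, against 48% and 4.79% of all genes tested. Ctss, a lysosomal protease of microglia, was 29.5 to 37.1 FPKM in control and 92.9, 48.8 and 78.5 FPKM in depleted A4, A5 and A6 (log2 fold change 1.07, adjusted p = 0.293 in limma). The related inhibitor Cst3, which astrocytes and neurons also make, had a log2 fold change of -0.11, and Ctsc of 0.12.

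Itgax encodes CD11c, an integrin subunit of dendritic cells and of activated microglia, on chromosome 7 (128129547 to 128150657, plus strand). It was 0.08, 0.04 and 0.08 FPKM in control mice, and 1.46, 0.42 and 0.44 FPKM in depleted A4, A5 and A6. All depleted mice were above all control mice, and A4 was far above A5 and A6. The mean of 0.420 FPKM over the 6 mice was under the minimum of 0.5 FPKM, so it was not in the main test, and without a filter its log2 fold change was 0.68 (SE 0.21, adjusted p = 0.453 in limma). The control values rested on about 5, 3 and 6 fragments, and those of A4, A5 and A6 on about 81, 6 and 20. Dendritic cell markers were low, and 2 of 6 were tested, Flt3 and Zbtb46. The summed level of all 6 was 5.58, 5.0 and 6.03 FPKM in the control mice and 5.06 to 6.68 FPKM after depletion. Most of this sum came from Flt3 and Zbtb46. Xcr1, too low to be tested, was 0.14 to 0.21 FPKM in control and 0.24 to 0.93 FPKM in depleted mice, and the rest overlapped between groups. Itgb2, the integrin partner of Itgax, had a log2 fold change of 0.10.

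Cd52, a small surface glycoprotein of leukocytes, lies on chromosome 4 (134082448 to 134095082, minus strand). It was 3.90, 3.19 and 3.12 FPKM in control mice, and 27.2, 8.32 and 14.1 FPKM in depleted A4, A5 and A6. The lowest depleted mouse was above the highest control mouse. Its log2 fold change of 1.85 was the largest of the 9 tested genes with a pseudocount of 1, but not with 0.1, where Cd52 was 2.09, Clec7a 3.0 and Cst7 2.35. With a pseudocount of 1 the test of Cd52 gave no call (SE 0.34, unadjusted p = 0.000487, adjusted p = 0.283 in limma, 0.0421 to 0.892 over the alternatives). The log2 fold change was 2.23 without A5 and 1.43 without A4, and it passed in both (adjusted p = 0.0421 and 0.0962 in limma).

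Spp1, osteopontin, a secreted ligand of integrins and CD44, lies on chromosome 5 (104435118 to 104441050, plus strand). It was 16.9, 10.9 and 12.5 FPKM in control mice, and 17.8, 14.3 and 11.5 FPKM in depleted A4, A5 and A6. The groups overlapped, with A6 below A3. For Spp1 the log2 fold change was 0.11 with a 95% interval of -0.32 to 0.53 (adjusted p = 0.868 in limma, 0.562 to 0.988 over the alternatives). Cd44 had a log2 fold change of 0.25 and Itgb3 of -0.10, and the list of 7 integrin and Spp1 partners had a median of -0.025.

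**Figure D2:**
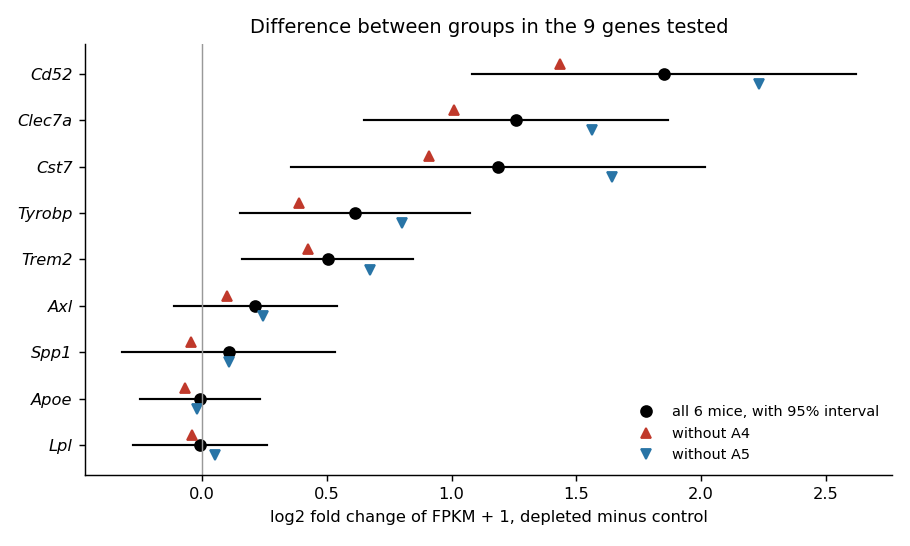
Log2 fold change of FPKM + 1, depleted minus control, with its 95% interval in limma for the 9 genes tested (black), and the value without A4 (red) and without A5 (blue). Cd52, Clec7a, Cst7, Tyrobp and Trem2 lie above 0 with all 3 estimates, and Axl, Spp1, Apoe and Lpl have intervals that cross 0.

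The calls depended on which mice were kept. Without A5, the shallowest library, 3 of the 9 genes (Cst7, Clec7a and Cd52) passed, against 0.153% of the genes tested and higher in depleted mice. Cst7 and Clec7a again entered the test only through the depleted mice. Without A4, 1 passed (Cd52), against 0.0909%, and with array weights, by which limma weighs each mouse by its own spread, 1 passed (Cd52), against 0.0904%. Without A3 and A4, the mice whose sex-linked genes stood apart, 0 passed, and the log2 fold changes of Cd52, Clec7a and Cst7 were 1.39, 1.02 and 1.06.

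**Figure D3:**
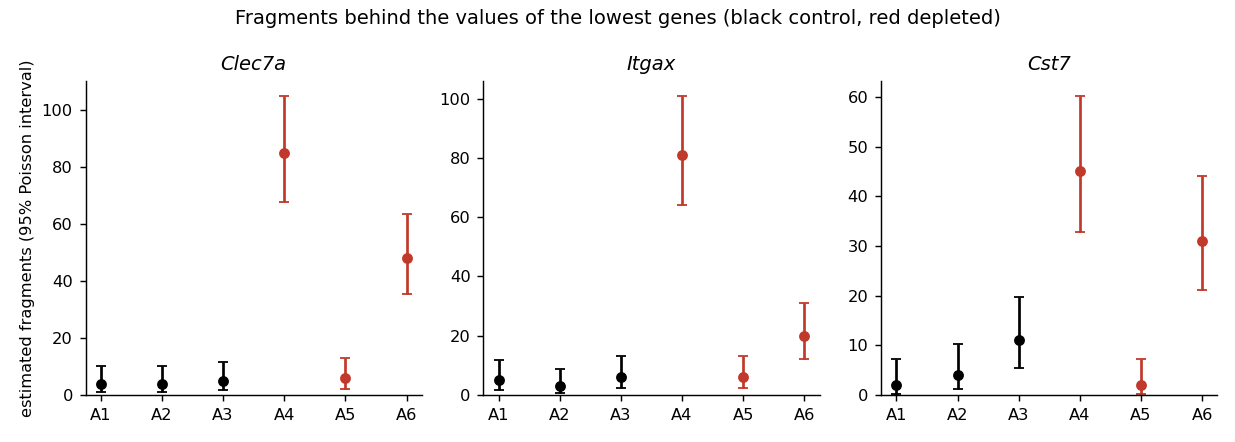
Estimated number of fragments behind the value of Clec7a, Itgax and Cst7 in each mouse (points), with 95% Poisson intervals that cover counting error only. The intervals of A4 lie above those of every control mouse in each panel, and A5 has 6 fragments or fewer.

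The level of each gene was then set against the summed FPKM of pan-myeloid markers, which were 138.3 to 169.9 FPKM in control mice and 334.7, 178.8 and 235.9 FPKM in depleted A4, A5 and A6, and of which the C1q genes make up most. Of the 9 markers tested all had positive log2 fold changes, against 48% of all genes tested. The median of these markers was 0.63, and 0.31 without A4. At an unadjusted p under 0.05 in limma 6 of the 9 were higher, against 4.79% of all genes tested. Aif1, which encodes the microglial protein Iba1, was 5.88 to 6.49 FPKM in control and 14.3, 7.34 and 12.8 FPKM in depleted A4, A5 and A6. Relative to this sum, Trem2 differed by -0.10 on the log2 scale and Tyrobp by -0.0067 (exact two-sided permutation p = 0.8 and 1.0). Clec7a was 3.20 higher, Itgax 2.71 and Cd52 1.48, each with no overlap between groups (exact permutation p = 0.1), and Cst7 was 2.13 higher with overlap (exact permutation p = 0.2). Of all genes tested, 0.514% were higher in every depleted mouse on this ratio. Apoe and Lpl were lower relative to the sum, with a difference of -0.65 each on the log2 scale and no overlap (exact permutation p = 0.1). The sum itself was higher in every depleted mouse, and 53.2% of all genes tested were lower in every depleted mouse on this ratio. In all, 53.7% did not overlap in either direction.

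The summed markers of resting microglia were the other reference. Trem2 was 0.47 and Tyrobp 0.57 higher on the log2 scale, Clec7a 3.78, Itgax 3.28, Cst7 2.71 and Cd52 2.06, and these 6 did not overlap between groups (exact two-sided permutation p = 0.1 for each), against 3.42% of all genes tested that were higher in every depleted mouse on this ratio. Cst7 counts here by a margin of 0.4546% of the sum in A5, from about 2 fragments, over 0.4533% in A3. Apoe, Lpl, Axl and Spp1 differed by -0.072, -0.073, 0.17 and 0.050. Within that list P2ry12 was lower in every depleted mouse (6.45 to 7.91 against 8.50 to 10.2 FPKM), and Fcrls was 3.83 to 7.91 against 8.19 to 13.3 FPKM. Tmem119, Cx3cr1 and Csf1r overlapped between groups, with log2 fold changes of 0.16, 0.025 and -0.081.

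**Figure D4:**
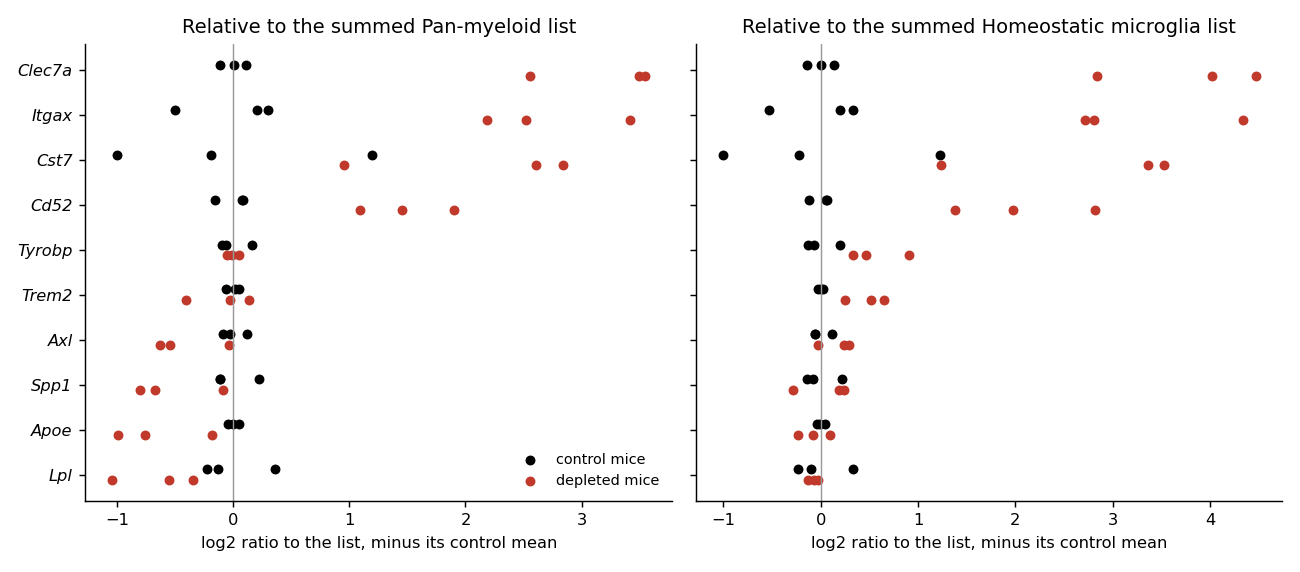
Log2 ratio of each gene to the summed FPKM of pan-myeloid markers (left) and of resting microglia markers (right) in each mouse, minus the mean of the control mice, so that 0 is the control mean. Clec7a, Itgax and Cd52 lie to the right of all control mice in both panels, and Trem2 and Tyrobp do so in the right panel.

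Other genes of the disease-associated state were taken from a separate list. Of 23 tested, 19 had a positive log2 fold change, against 48% of all genes tested. The median of the list was 0.15, and 0.084 without A4, against -0.0085 over all genes tested. At an unadjusted p under 0.05 in limma 5 were higher, against 4.79% of all genes tested, and 0 passed. Lgals3bp was 6.06 to 10.2 FPKM in control and 60.1, 14.3 and 17.3 FPKM in depleted A4, A5 and A6 (log2 fold change 1.54, adjusted p = 0.378 in limma), and it was 0.91 without A4. Fth1, the ferritin heavy chain, had a log2 fold change of -0.13. Of the 149 tested genes in all lists 0 passed.

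Markers of the other cells that cortex may hold were also measured. The summed monocyte and border macrophage markers were 7.39 to 8.24 FPKM in control and 9.83, 7.55 and 5.86 FPKM in depleted A4, A5 and A6. Ccr2, which marks monocytes, was 0.02 to 0.24 FPKM in all mice. Ly6c2 had a log2 fold change of 0.62 and Pf4 of -0.85, and both overlapped between groups. With a control mean of 0.263 FPKM, Ly6c2 entered the test only through the depleted mice, so its direction was fixed by the filter. Of 9 lymphocyte markers 1 was tested, Cd4, with a log2 fold change of -0.20, and Ms4a1 was listed at 0 in all mice. Gfap, of reactive astrocytes, was 64.5 to 88.3 FPKM in control and 300.3, 108.5 and 120.1 FPKM in depleted A4, A5 and A6. Median log2 fold changes were -0.0059 over 8 neuronal, -0.14 over 8 astrocyte, -0.24 over 7 oligodendrocyte, 0.011 over 8 vascular, -0.076 over 7 meningeal and -0.43 over 6 choroid plexus markers. The part of these cells in the values of the 10 genes was not tested.

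**Figure D5:**
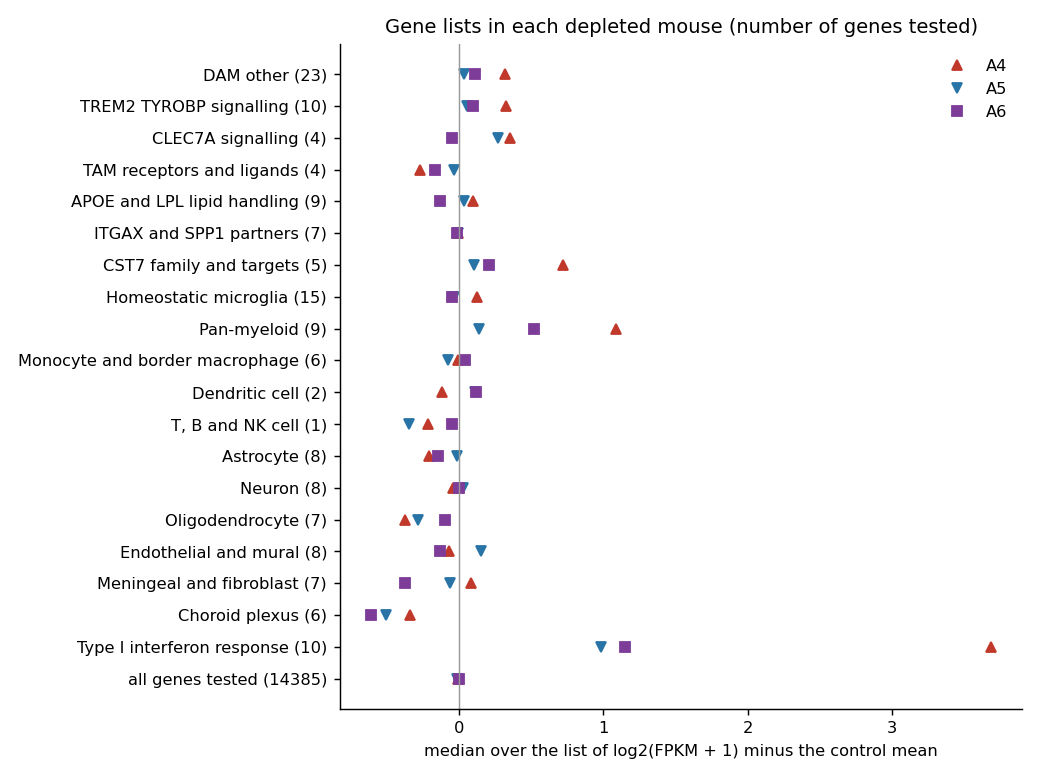
Median over each gene list of log2(FPKM + 1) minus the control mean, for depleted mice A4, A5 and A6, with the number of genes tested in parentheses. The type I interferon and pan-myeloid lists lie furthest to the right in A4, and the median of all genes tested is near 0 in each mouse.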

How the data were processed

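The authors made poly(A)-selected libraries and read them paired-end at 75 bases. TopHat served for alignment and RSEM for quantification on known transcripts. Their notes name mm9 and DESeq, and versions are not given in the sources used here. The authors deposited FPKM values with 2 decimals after TMM normalization, and raw counts were not used here. FPKM were tested with limma 3.58.1 (R 4.3.3, trend on) on log2(FPKM + 1). The 14385 genes that averaged 0.5 FPKM or more entered, p-values were adjusted over all of these by Benjamini-Hochberg, and 0.1 was the threshold. Single genes were compared with exact two-sided permutation tests, whose smallest p for 3 mice against 3 is 0.1. These p-values measure the spread between these mice. Depth was estimated from the low values of 1813 single-transcript genes of 400 to 1500 bases, of which 73.1 to 77.5% of values of few fragments were whole within 0.15 fragments. The estimate was within 0.111% on 3 simulated libraries. These were simulated as whole counts on the same transcript lengths, without RSEM or TMM scaling. Their error is thus not that on the deposited values, which was not measured. On data simulated for control against depleted with 14385 genes, of which 200 were changed by 1 on the log2 scale, limma recovered 167 with 20 false calls. The simulated noise was normal and equal in both groups, and the shift was the same in every depleted mouse. In the real data array weights were 1.39 to 2.44 in control and 0.304 to 0.875 in depleted mice. The simulation therefore does not measure how many real changes of this size would be called. Fragment numbers use the longest transcript and cover counting error only. Positions are from GENCODE (GRCm38), matched by symbol, and not from the build of the files. Named were all 10 genes, and from the lists genes with the highest or lowest log2 fold change, genes that passed, and genes picked by role. Some genes of the lists that this rule names are not reported here. The 10 genes and the lists were chosen with earlier results of these data known. Alternatives were array weights, a fit with no trend, a pseudocount of 0.1, all genes or those averaging 1 FPKM, TPM or median-of-ratios scaling, 0.05 as threshold, each mouse left out, another reference list, and, chosen after seeing the data, leaving out A3 and A4.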

Additional observations from a re-analysis of the deposited data

How the results depend on the processing

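With all 6 mice 0 of the 9 tested genes passed in limma, and with array weights 1 did. Leaving out 1 mouse at a time gave 0 to 3, with 3 without A5 and 1 without A4. Of the tested genes in the lists 0 passed, and 0 to 4 did with a mouse left out. With array weights 1 of 149 passed (Ttr), where 20 of all 14385 genes passed in either direction. Without A4 it was 4 of 147 (Ifit3, Ifi27l2a and Ttr among them), against 22 of all 14308 genes. Without A5 it was 4 of 150 (Igf2, Ctss, Aif1 and C1qa), against 29 of all 14413 genes. The number of the 10 genes whose ratio to pan-myeloid markers did not overlap between groups was 5, and 5 to 8 with a mouse left out, 8 without A3 and 8 without A5. Groups of 3 and 2 separate more easily, and of all genes tested 58.8% did not overlap without A3 and 87.1% without A5, so these counts are not comparable with that of all 6 mice. The signs of genes near 0 turned. Apoe had a log2 fold change of -0.093 to 0.081 with a mouse left out, Lpl of -0.051 to 0.077 and Spp1 of -0.043 to 0.27, and Spp1 was -0.016 with array weights and -0.079 without A3 and A4. The cause was not tested. The pseudocount, the filters, the scalings and the trend changed no call among the 9 genes, although a pseudocount of 0.1 raised the log2 fold change of Clec7a from 1.26 to 3.0 and of Cst7 from 1.19 to 2.35. No paired analysis was possible because the sources used here do not give the litter of each mouse. Depth limits Clec7a, Itgax and Cst7 most, at 6 fragments or fewer in A5.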
